A study of Mus musculus with 6 samples.

Results

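The amyloid precursor family and the proteases that cut it were followed in neuro2a (N2a) cells, a mouse neuroblastoma line, after knockdown of the transcription factor NF-Y. The 9 genes described are the precursors App, Aplp1 and Aplp2, the alpha-secretase Adam10, the beta-secretase Bace1, and the gamma-secretase subunits Psen2, Ncstn, Aph1a and Psenen. They were taken as every probe whose transcript accession mapped to one of these genes, and they made up 9 of the 16490 genes tested. RNA came from N2a cells transfected with an empty miR RNAi vector (control, 3 arrays) or with vectors expressing miR RNAi for the NF-YA and NF-YC subunits (knockdown, 3 arrays), and was hybridized to single-colour Agilent mouse arrays. Both groups were the same cell line and the vectors carried the EmGFP reporter. Cells were collected 2 days after a transient transfection, and no sorting of transfected cells was described, so a bulk signal mixes cells with and without vector. In such a sample fewer cells with a transcript and less of it in each cell cannot be told apart. The labels do not say whether replicates came from separate cultures, so the p-values below measure the spread between these arrays, which may be technical.

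APP is a membrane protein that is shed by a pair of competing routes. Cleavage by an alpha-secretase, chiefly ADAM10, falls inside the amyloid beta segment and releases a soluble ectodomain, whereas cleavage by BACE1 at the start of that segment leaves a stub from which gamma-secretase releases amyloid beta. Gamma-secretase is built from a presenilin, nicastrin, APH1 and PEN2, and it also cuts Notch receptors and the APP relatives APLP1 and APLP2, which lack the amyloid beta segment. NF-Y binds CCAAT motifs near gene starts, and the comparison asks how transcripts of these genes respond when its A and C subunits are reduced.

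Since NF-Y reads CCAAT, the gene starts of the members are shown first. RefSeq promoter windows on GRCm38.p6, each 300 bases long and running from 250 bases before to 50 bases after an annotated start, were matched for 8 of the 9 members. No window was matched for Bace1. CCAAT was searched on both strands, so that the letters in a printed sequence are CCAAT or ATTGG. The letters were found for 4 of these 8 members, namely Aplp2, Adam10, Aph1a and Psenen, while 41.1% of the 27025 genes in the table had them in at least 1 window. Of all 32851 windows, 37.4% held a match and 11.5% held at least 2. The sequences below were chosen because Adam10 and Psen2 were the 2 members with the largest decreases on the arrays, and because Aplp2 and Aph1a carry as many matches as Adam10. Capitals mark CCAAT or ATTGG, each line reads 5′ to 3′ on the strand of the gene, and the windows are Adam10 at chr9:70678732-70679031 on the plus strand, Psen2 (the first of 2 windows) at chr1:180256251-180256550 on the minus strand, Aplp2 at chr9:31211799-31212098 on the minus strand and Aph1a at chr3:95893671-95893970 on the plus strand.
Adam10: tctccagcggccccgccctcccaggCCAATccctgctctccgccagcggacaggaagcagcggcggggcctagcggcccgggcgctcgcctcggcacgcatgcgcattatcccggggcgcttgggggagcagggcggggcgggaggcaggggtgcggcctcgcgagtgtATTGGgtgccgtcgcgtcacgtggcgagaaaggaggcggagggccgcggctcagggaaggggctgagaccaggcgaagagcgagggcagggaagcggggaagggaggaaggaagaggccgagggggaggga
Psen2: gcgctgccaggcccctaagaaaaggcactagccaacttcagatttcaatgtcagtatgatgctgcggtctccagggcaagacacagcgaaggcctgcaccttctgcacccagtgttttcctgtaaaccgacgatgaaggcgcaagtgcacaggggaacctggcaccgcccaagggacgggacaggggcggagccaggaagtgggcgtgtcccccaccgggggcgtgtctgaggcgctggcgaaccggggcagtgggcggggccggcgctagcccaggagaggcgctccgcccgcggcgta
Aplp2: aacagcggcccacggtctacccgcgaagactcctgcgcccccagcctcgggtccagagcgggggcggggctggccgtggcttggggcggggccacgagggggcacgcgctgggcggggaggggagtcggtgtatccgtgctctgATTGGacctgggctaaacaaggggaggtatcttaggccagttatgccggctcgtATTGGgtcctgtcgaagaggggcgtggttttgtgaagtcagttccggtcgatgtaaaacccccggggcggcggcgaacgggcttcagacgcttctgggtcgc
Aph1a: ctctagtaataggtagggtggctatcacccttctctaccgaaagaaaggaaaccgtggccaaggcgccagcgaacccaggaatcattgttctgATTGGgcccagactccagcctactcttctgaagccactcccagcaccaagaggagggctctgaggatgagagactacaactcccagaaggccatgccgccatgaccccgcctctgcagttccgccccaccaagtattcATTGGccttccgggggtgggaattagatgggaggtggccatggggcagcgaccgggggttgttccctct
In Adam10 the matches began 225 and 81 bases before the start, in Aplp2 106 and 52 bases before, and in Aph1a 157 and 19 bases before. Psenen had 1 match, 77 bases before the start in the first of its 2 windows and none in the second. Neither window of Psen2 held the letters, nor did the windows of App, Aplp1 and Ncstn. A match describes only these letters in this stretch.

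The knockdown was visible in the targeted genes. The unit below is the normalized signal, the log2 of a spot's processed intensity minus the log2 of the 75th percentile of its array. A difference of 1 is a doubling of the intensity relative to that percentile. A gene was called when its limma p, adjusted over 42126 probes, was under 0.05 and its change exceeded 1.5-fold. Nfya signal was 0.14, 0.15 and 0.21 on control arrays 1 to 3 and -0.66, -0.52 and -0.59 on knockdown arrays 1 to 3, a change of -0.76 (SE 0.055, adjusted p = 0.00128). Nfyc fell by 1.81 (SE 0.045, adjusted p = 0.000323), and Nfyb, which encodes the subunit that was not targeted, rose by 0.83 (SE 0.060, adjusted p = 0.00131). The 75th percentile of intensity lay between 718.1 and 754.3 on the 6 arrays, and 61.9% to 66.2% of spots were well above background. Of 16 neuronal and neuroblastoma markers, 14 were well above background on all 6 arrays, and the summed level of that list was 8.18 to 8.20 on the control arrays and 8.18 to 8.21 on the knockdown arrays, with Mycn and Th called lower. So were 4 of 5 oligodendrocyte, 4 of 6 microglia, 4 of 5 fibroblast, 2 of 5 astrocyte and 2 of 4 endothelium markers above background. This measure therefore does not single out neurons. The summed levels of the microglia and fibroblast lists overlapped between groups. Those of the astrocyte, oligodendrocyte and endothelium lists were lower on all knockdown arrays. All arrays lay on 1 slide, with the controls and knockdown array 1 in the first row and knockdown arrays 2 and 3 in the second row.

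All 11 probes of the 9 members were well above background on all 6 arrays, and none was saturated. Aph1a and Psenen had 2 probes each, and every other member, Adam10 and Psen2 included, was read from 1 probe. Adam10 and Psen2 were called lower in the knockdown and no member was called higher, so that 2 of 9 members (22.2%) were called lower against 5.00% of all genes tested, and 0 were called higher against 3.91%. In either direction 8.90% of all genes were called. With the adjusted p alone, 5 members were lower against 15.8% of all genes, the other three being the precursors App, Aplp1 and Aplp2, and none was higher against 15.7%. This count depended on the fit, since limma with a variance trend, or with probes filtered on signal well above background, had 7 members lower, adding Aph1a and Psenen. It was 4 with median scaling or with no filter on low signal, and 4 to 5 with an array left out. With the replicate number as a block it was 3, and with the slide row as a block it was 1. The 3 knockdown arrays lay entirely below the 3 controls for 7 members (77.8%), whereas this held for 27.1% of all genes. They lay entirely above the controls for 1 member, Bace1, as for 27.7% of all genes, and overlapped the controls for Ncstn alone. The median change of the members was -0.21, and that of all genes was 0.0053. The 8 members with a change below 0 compare with 49.2% of all genes.

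**Figure D1:**
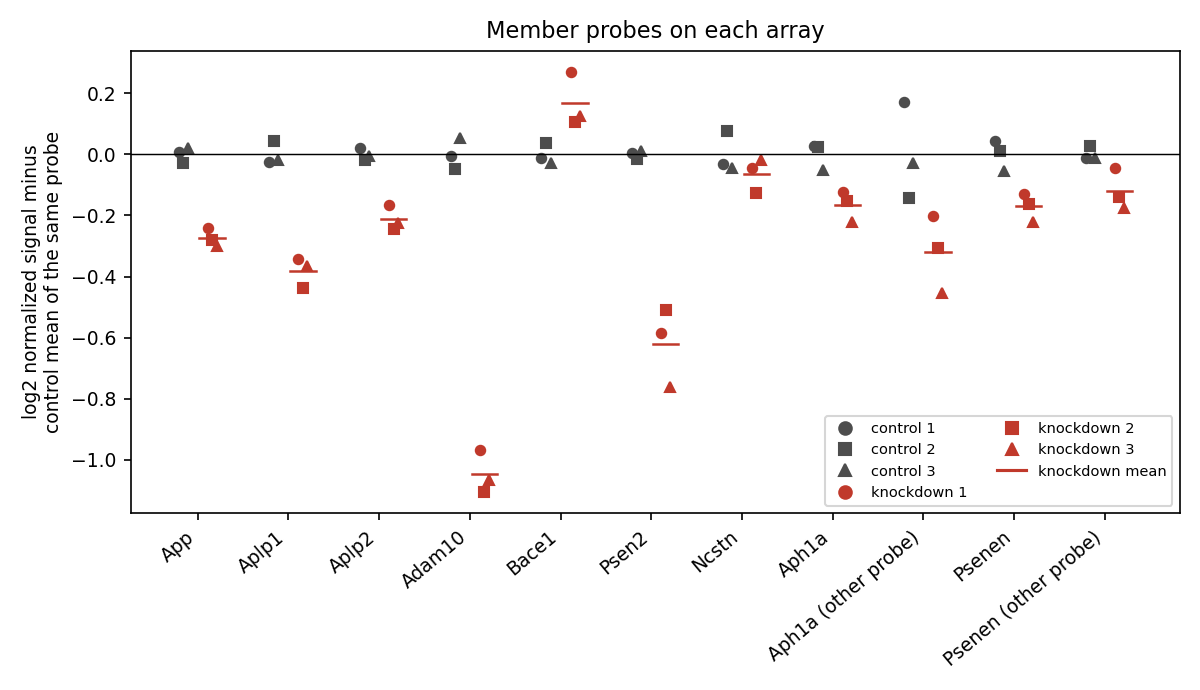
Normalized signal (log2) of the 11 member probes on each array minus the control mean of the same probe, which sets the line at 0. Grey points are the 3 control arrays, red points the 3 knockdown arrays with their mean as a bar, and symbols give the replicate number. Adam10 lies lowest at a mean of -1.05, followed by Psen2 at -0.62, Bace1 lies above 0, and Ncstn is the only member whose groups overlap.

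The precursor transcripts were all slightly lower in the knockdown. App signal was 5.07, 5.03 and 5.08 on control arrays 1 to 3 and 4.82, 4.78 and 4.76 on knockdown arrays 1 to 3. All knockdown arrays lay below all controls, and the arrays of each group lay close together. The change was -0.27 (SE 0.042, 95% interval -0.38 to -0.17, adjusted p = 0.0103), which is 17.3% less signal and short of the minimum fold. As intensities, App read 25350, 24168 and 25533 in the controls and 21144, 19754 and 19846 in the knockdown.

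Aplp1, the precursor relative with the most restricted expression in neurons, was 3.47, 3.54 and 3.48 on the control arrays and 3.16, 3.06 and 3.13 on the knockdown arrays. The groups did not overlap. Its change of -0.38 (SE 0.048, 95% interval -0.50 to -0.26, adjusted p = 0.00593), or 23.2% less signal, was the widest among the precursors. Aplp2, which is expressed in most tissues, was 5.39, 5.35 and 5.36 in the controls and 5.20, 5.12 and 5.14 in the knockdown. These groups too were apart, by a narrower margin, with a change of -0.21 (SE 0.043, 95% interval -0.32 to -0.10, adjusted p = 0.0245), or 13.7% less signal. Leaving out any control array, knockdown array 2 or knockdown array 3 took the adjusted p of Aplp2 to 0.05 or more.

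Adam10, the protease that starts the non-amyloidogenic route and also sheds Notch and cadherins, was the member with the largest change. Its signal was 1.91, 1.87 and 1.97 on control arrays 1 to 3 and 0.95, 0.81 and 0.85 on knockdown arrays 1 to 3. Every knockdown array was far below every control, with a gap several times wider than the range of either group. The change was -1.05 (SE 0.057, 95% interval -1.19 to -0.90, adjusted p = 0.000659), a 2.06-fold decrease that placed Adam10 at rank 323 from the lowest among 16490 genes. In intensity the same spots read 2841, 2701 and 2953 in the controls and 1445, 1263 and 1320 in the knockdown.

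Bace1, the beta-secretase that starts the amyloidogenic route, did not pass the test. Its signal was 0.94, 0.99 and 0.92 in the controls and 1.22, 1.06 and 1.08 in the knockdown. All knockdown arrays lay above the controls, knockdown array 1 by the most. The difference was 0.17 (SE 0.061, 95% interval 0.011 to 0.32, adjusted p = 0.118). With a variance trend (adjusted p = 0.0350), or with normexp and quantile normalization at 0.16 (adjusted p = 0.0333), Bace1 was higher with an adjusted p under 0.05, still short of the minimum fold. Under median scaling it was only 0.050 (adjusted p = 0.767).

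Among the gamma-secretase subunits, Psen2, which encodes presenilin 2 and thus one form of the catalytic subunit, was called lower. Psen2 signal was 0.37, 0.35 and 0.37 on the control arrays and -0.22, -0.15 and -0.40 on the knockdown arrays. The controls were nearly identical, and knockdown array 3 was the lowest of the knockdown arrays. The change was -0.62 (SE 0.075, 95% interval -0.81 to -0.43, adjusted p = 0.00515), a 1.54-fold decrease that lay just past the minimum fold. Without knockdown array 3 the change was -0.55 (adjusted p = 0.0114) and Psen2 was no longer called.

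The other three subunits did not pass. Aph1a, the scaffold that first pairs with nicastrin, was 2.47, 2.46 and 2.39 in the controls and 2.32, 2.29 and 2.22 in the knockdown, a difference of -0.17 (SE 0.050, adjusted p = 0.0745). Its other probe, for another transcript, gave -0.32 (SE 0.11, adjusted p = 0.0989). Both probes of Aph1a had all knockdown arrays below all controls.

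Psenen, which encodes the subunit that triggers presenilin to cleave itself, was 5.56, 5.53 and 5.47 in the controls and 5.39, 5.36 and 5.30 in the knockdown, a difference of -0.17 (SE 0.050, adjusted p = 0.0696). A further Psenen probe gave -0.12 (SE 0.051, adjusted p = 0.163). Ncstn, which encodes nicastrin, the subunit that receives substrates, was -3.06, -2.96 and -3.08 in the controls and -3.08, -3.16 and -3.05 in the knockdown. The groups overlapped, the difference was -0.063 (SE 0.057, 95% interval -0.21 to 0.082, adjusted p = 0.488), and the probe was dim, with intensities of 80.4 to 95.0.

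**Figure D2:**
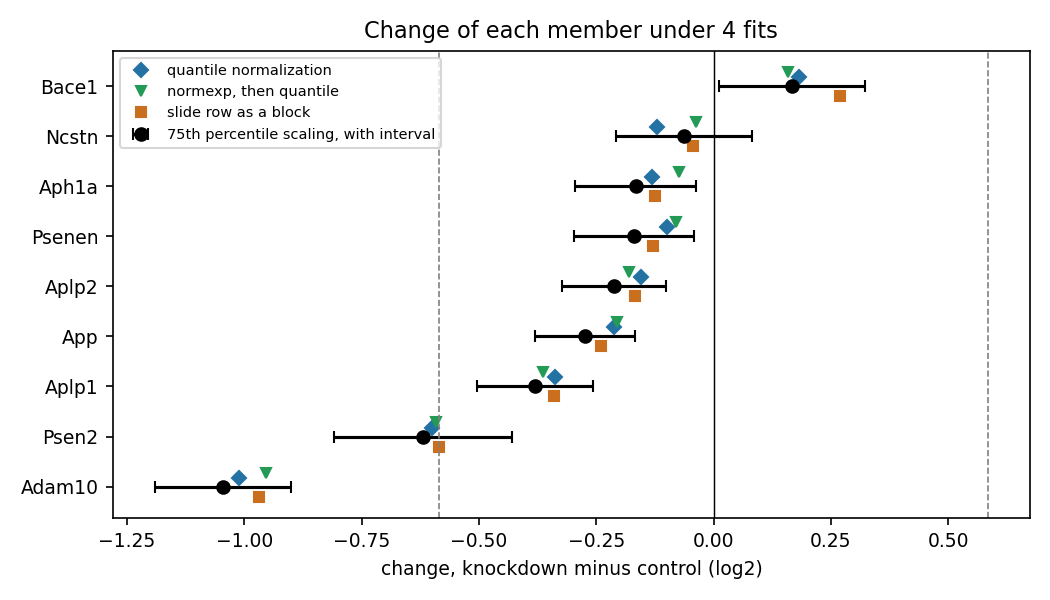
Change of each member (knockdown minus control, log2) in the comparison of 3 with 3 arrays and in the 3 other fits named in the key; horizontal bars are 95% intervals of the comparison of 3 with 3 arrays and dashed lines mark the 1.5-fold limit. Adam10 at -1.05 is the only member well past the limit, and Psen2 at -0.62 lies at it.

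The row of the slide bears on these values, because only knockdown array 1 shares a row with the controls. With the row as a block, Adam10 was still called at -0.97 (adjusted p = 0.0139), whereas Psen2, at -0.59 (adjusted p = 0.0610), was not. App (-0.24, adjusted p = 0.0975), Aplp1 (-0.34, adjusted p = 0.0667) and Aplp2 (-0.17, adjusted p = 0.181) kept their direction but lost an adjusted p under 0.05, and Bace1 was 0.27 (adjusted p = 0.0852). In row 1 alone, where knockdown array 1 was set against the 3 controls and taken to vary as they do, the changes were the same and Adam10 had an adjusted p of 0.0552. There limma called 0 of the 16490 genes in either direction, with a smallest adjusted p of 0.0515, although 2291 genes were lower and 2606 higher at an unadjusted p under 0.05.

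Another scaling moved the members together. Setting each array to its median in place of its 75th percentile shifted the median of all genes to -0.11 and that of the members to -0.33. Adam10 and Psen2 were called lower under each scaling tried, and the 3 precursors were below 0 and Bace1 above 0 under each. Ncstn was 0.0059 after normexp background correction with 75th percentile scaling, the only member to turn its direction.

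Subtracting a single value from each array, as the 75th percentile and median scalings do, leaves differences between members of the same array as they are, whereas quantile normalization and another background correction move them. These were taken for 6 pairs, and since 3 against 3 arrays have 20 assignments, 0.1 is the smallest p an exact two-sided permutation test can give. The Bace1 minus Adam10 difference was -1.05 to -0.88 on the control arrays and 0.22 to 0.27 on the knockdown arrays. The groups were apart, and the shift of 1.21 is a 2.32-fold change in the ratio of beta-secretase to alpha-secretase signal. The App minus Adam10 difference was 3.11 to 3.16 in the controls and 3.87 to 3.97 in the knockdown, a shift of 0.77. The App minus Bace1 difference was 4.04 to 4.16 in the controls and 3.60 to 3.72 in the knockdown, a shift of -0.44. Each of these shifts had an exact p of 0.1, which stayed at 0.1 after adjustment over the 6 pairs.

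Within the precursor family the shifts were much smaller. App minus Aplp1 shifted by 0.11, App minus Aplp2 by -0.061 and Aplp1 minus Aplp2 by -0.17, again with groups apart and an exact p of 0.1. After normexp background correction, App minus Aplp2 was -0.026 with quantile normalization and -0.021 with 75th percentile scaling, with an exact p of 0.5 in both. Because probes differ in how strongly they bind, only the shift of such a difference is meaningful and not its sign.

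**Figure D3:**
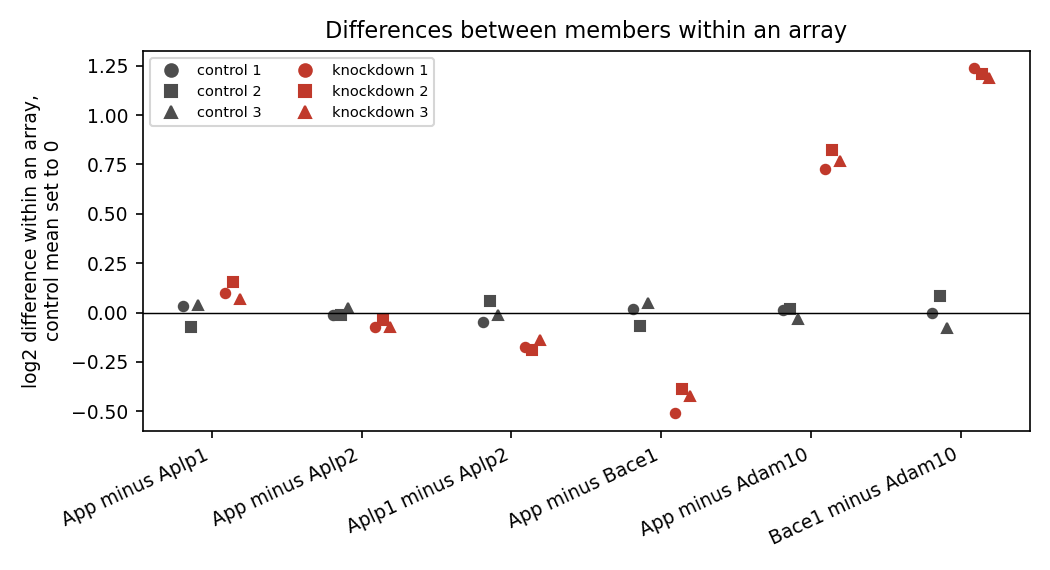
Difference in normalized signal (log2) between 2 members on the same array, with each pair centred on its control mean, for the 3 control and 3 knockdown arrays; points are arrays. Pairs that hold Adam10 shift upward by 0.77 and 1.21, App minus Bace1 shifts by -0.44, and the 3 precursor pairs shift by 0.17 or less in size.

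Genes that work beside the members were read from 8 lists of 105 genes, of which 90 were tested. Of these, 6 were called lower (6.67%, against 5.00% of all genes) and 3 higher (3.33%, against 3.91%). The 6 include Itm2a, whose signal was near background. These shares are near those of all genes, and the lists were written with earlier results of these data known.

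The list of other secretase subunits and homologs held 6 genes, of which 4 were tested, and 2 of these were called lower, against 5.00% of all genes. Bace2, the BACE1 homolog that cuts APP within the amyloid beta segment, was 6.46, 6.33 and 6.44 on the control arrays and 5.33, 5.34 and 5.29 on the knockdown arrays. The groups lay far apart, and the change was -1.09 (SE 0.052, adjusted p = 0.000500), a 2.13-fold decrease. A second Bace2 probe gave -0.26 (adjusted p = 0.0140), short of the minimum fold, so the size differed between probes.

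Aph1b, a paralog of Aph1a that assembles into separate gamma-secretase complexes, was 0.16, 0.16 and 0.32 in the controls and -0.69, -0.66 and -0.74 in the knockdown. Its groups were apart as well, with a change of -0.91 (SE 0.063, adjusted p = 0.00118), a 1.88-fold decrease, and -0.44 (adjusted p = 0.00785) for its second probe. Adam17, an alpha-secretase of stimulated shedding, was -0.055 (adjusted p = 0.489), and Adam9, a further metalloprotease of that family, was 0.098 (adjusted p = 0.306). Aph1c was not analysed here.

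The list of convertases, tetraspanins and inhibitors that mature or restrain the secretases had 3 of 14 tested genes called lower, against 5.00% of all genes, and none higher. Its median was -0.42, or -0.26 after normexp with quantile normalization and -0.23 after normexp with 75th percentile scaling. Tspan17, a tetraspanin that binds ADAM10 and helps it leave the endoplasmic reticulum, was 4.14, 4.10 and 4.12 on the control arrays and 2.78, 2.75 and 2.80 on the knockdown arrays. The arrays of each group lay close together, and the groups were far apart, with a change of -1.34 (SE 0.040, adjusted p = 0.000323), a 2.54-fold decrease that its second probe gave as -1.45. Of its relatives that also bind ADAM10, Tspan33 was -0.50 (adjusted p = 0.00592) and Tspan14 was -0.38 (adjusted p = 0.00396), both short of the minimum fold, while Tspan15 was -0.33 (adjusted p = 0.115) and Tspan5 was 0.024.

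Pcsk6, a proprotein convertase, fell by 0.69 (SE 0.054, adjusted p = 0.00155). Pcsk1, a convertase of secretory granules, was at -0.59 (SE 0.095, adjusted p = 0.0122), at the edge of the minimum fold. Without control array 3, knockdown array 1 or knockdown array 3 it was -0.58, -0.58 and -0.50 and was not called. Its call was also lost with the slide row as a block (adjusted p = 0.0934) and after normexp, at -0.40 and -0.37, and in all in 8 of 20 alternatives. Furin, which removes the propeptides of BACE1 and ADAM10, was 0.28 (adjusted p = 0.0154), short of the minimum fold.

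**Figure D4:**
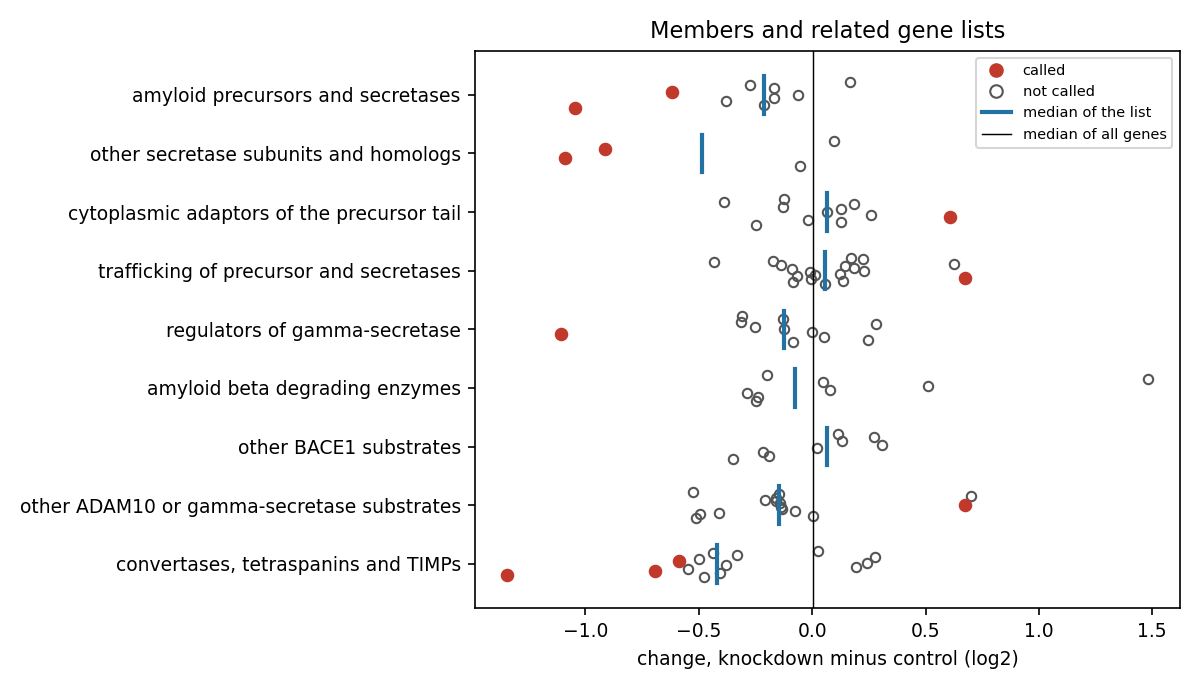
Change (knockdown minus control, log2) of the 9 members, in the top row, and of each tested gene in the 8 related lists; each point is a gene, filled red where called, blue bars are list medians and the vertical line is the median of all genes. Of the 6 called decreases outside the members, 2 lie among other secretase subunits and homologs and 3 among convertases, tetraspanins and inhibitors, while the called point among the regulators rests on signal near background.

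The remaining lists held few calls. Among cytoplasmic adaptors of the precursor tail, 1 of 11 tested genes was called, Apba1, whose protein binds the APP tail and slows its processing, at 0.61 (SE 0.058, adjusted p = 0.00254). Among 19 trafficking genes, Ap4m1, the subunit of an adaptor complex that recognizes the APP tail in the trans-Golgi network, was called at 0.67 (SE 0.048, adjusted p = 0.00127). Neither was called under median scaling, at 0.49 and 0.56, and Apba1 was not called without knockdown array 3, at 0.58.

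Among 15 substrates of ADAM10 or gamma-secretase, Efnb2, a ligand of Eph receptors, was called at 0.67 (SE 0.049, adjusted p = 0.00129), but its second probe gave -0.31 (adjusted p = 0.281), so its direction is uncertain. The prion protein gene Prnp was -0.51 (adjusted p = 0.00185) and Notch1 was -0.53 (adjusted p = 0.0399), both short of the minimum fold. None of 8 tested BACE1 substrates and none of 8 tested amyloid beta degrading enzymes was called, with medians of 0.067 and -0.076. Using limma's adjusted p alone, 1 substrate was lower and 1 higher, and 2 degrading enzymes were lower. Among 11 regulators of gamma-secretase, Itm2a was called lower (adjusted p = 0.0446), but its signal cleared background on 1 control array and on none of the knockdown arrays, so no fold is given. Its call held in 6 of 18 alternatives. The medians of the adaptor, trafficking and BACE1 substrate lists, 0.066, 0.058 and 0.067, turned to -0.051, -0.059 and -0.050 under median scaling.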

How the data were processed

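RNA of 3 control and 3 knockdown N2a samples was measured on 6 arrays, grouped by sample title. Scans were quantified by the authors in Feature Extraction 10.10.1.1, whose processed signal, deposited as a linear intensity, is already corrected for background. The deposited series matrix holds log2 values of unstated scale, used as an alternative. The log2 intensity was reduced by the 75th percentile of its array, spots of a probe were averaged, control and outlier spots were left out, 245 probes lacking a value on an array were dropped, and probes above the 20th percentile were kept (42126 of 55681). The methods name this percentile but not how many arrays had to pass. Here a probe had to pass on all 3 arrays of the control or of the knockdown group. A gene could thus enter through its brighter group alone. limma 3.58.1 in R 4.3.3 compared the groups (lmFit, eBayes, Benjamini-Hochberg over all probes), and a call needed an adjusted p under 0.05 and a change over 1.5-fold. Probe accessions were matched to RefSeq symbols (25869 of 26392 curated mRNA accessions), 20548 tested probes had no symbol, and the brightest probe stood for a gene. Code was tested on simulated data.

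The members and lists were chosen with earlier results of these data known. Text names all members, the NF-Y subunits, up to 3 called genes per list and every gene of the list with 6, neighbours of called members, and the 3 genes most like each called member. A few items that this rule names are not reported here. Other list genes were named after their values were seen. Alternatives covered scaling, background correction, filters, variance model, blocks, probe choice and left-out arrays. The number of arrays limits the precision.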

Additional observations from a re-analysis of the deposited data

How the results depend on the processing

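Adam10 was called lower under every alternative except slide row 1 alone, with a range of -1.16 to -0.95. Psen2 ranged from -0.74 to -0.55 and was called in 17 of 20. The other ranges were -0.39 to -0.20 for App, -0.50 to -0.34 for Aplp1, -0.33 to -0.16 for Aplp2, 0.050 to 0.27 for Bace1, -0.28 to -0.073 for Aph1a, -0.29 to -0.080 for Psenen and -0.18 to 0.0059 for Ncstn, whose only value above 0 came from normexp with 75th percentile scaling (adjusted p = 0.948). The number of members called lower was 2, and it became 1 with the slide row as a block, 0 within row 1, 1 to 2 with an array left out, 5 with no minimum fold and 1 with a minimum fold of 2.

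The genes called were 824 lower and 644 higher (56.1% lower). Median scaling gave 1175 lower and 382 higher (75.5%), normexp with quantile normalization 549 and 292 (65.3%), and normexp with 75th percentile scaling had 278 higher (67.7% lower). No minimum fold gave 2602 and 2597, a minimum of 2-fold gave 286 and 181, and row 1 alone gave 0 and 0. Leaving out an array gave 746 to 832 lower and 545 to 609 higher. Within row 1 Nfya was -0.83 (adjusted p = 0.0581), Nfyb 0.83 (adjusted p = 0.0728) and Nfyc -1.85 (adjusted p = 0.0515), none of them called. Of the related genes, 6 were called lower, or 11 under median scaling and 4 under either normexp setting and under the replicate block, and 3 higher, or 0 under median scaling, 1 under either normexp setting and 5 under the replicate block. Under median scaling the medians of the adaptor, trafficking and BACE1 substrate lists turned to -0.051, -0.059 and -0.050. The cause of these moves was not tested. The planned normexp on mean signal was not run, since median signals were used in its place. That setting and the comparison within row 1 were chosen after seeing the data.

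The deviations of arrays with the same replicate number had correlations of 0.018, 0.067 and 0.0025. Pairs with different numbers had -0.081 to 0.063. So few arrays cannot show whether a number marks a shared culture. With a replicate block 2 members were still called lower, Pcsk1 lost its call (adjusted p = 0.0517), and the members with an adjusted p under 0.05 went from 5 to 3, as App (0.0549) and Aplp2 (0.0710) were no longer under it. Genes called were then 765 lower and 518 higher.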

Other observations

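Across 13968 genes well above background on all 6 arrays, the pattern closest to that of Adam10, by root mean square difference of the 6 values after centring on the control mean, was that of Cyp51, a sterol demethylase of cholesterol synthesis (difference 0.016, change -1.04). Ccdc32 (0.024, change -1.06) and Kif5c, a neuronal kinesin heavy chain (0.029, change -1.06), followed. For Psen2 the closest were Pcsk1 (0.043, change -0.59) and Cyp4f13 (0.051, change -0.58). With 6 arrays in 2 groups, a like change between the groups counts as closeness by this measure.

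The nearest annotated genes on either side of Adam10 (Gm31872 and Lipc) and of Psen2 (Gm37336 and Gm39713) were not among the genes tested. Genes that overlap other members, named after their values were seen, were not called. Copa, over Ncstn, was -0.15 (adjusted p = 0.157), Rnf214, over Bace1, was -0.22 (adjusted p = 0.0520), and U2af1l4, over Psenen, was -0.046 (adjusted p = 0.558).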
